A study of Mus musculus with 6 samples.

Results

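The genes examined here encode the nuclear-encoded subunits of the mitochondrial respiratory chain and the ATP synthase. They were chosen by name alone, as every gene whose single symbol in the platform's probe table marks a subunit of complex I (Nduf), complex II (Sdh), complex III (Uqcr), complex IV (Cox4 to Cox8) or the ATP synthase (Atp5). The rule found 81 of the 18193 genes on the array, of which 35 belong by name to complex I, 4 to complex II, 8 to complex III, 17 to complex IV and 17 to the ATP synthase. Each gene is given by 1 probe set, the one with the highest mean log2 intensity over the 6 arrays. RNA came from mouse embryos at E10.5, from green fluorescent cells sorted out of hindbrains that had been dissected from whole litters. Both genotypes carried IRES-tauGFP at the Hoxb1 locus, so that the cells that used this locus made a fluorescent tau fusion protein. In the control group (Hoxb1-IRES-tauGFP, n = 3 arrays) the locus made the normal Hox-B1 protein, and in the swap group (n = 3 arrays) it made another Hox protein, a paralog of Hox-B1. The labels give the tissue as rhombomere 4, and replicates are described as biological and independent. The p-values below measure the spread between such pooled litters.

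The respiratory chain is a row of protein complexes in the inner mitochondrial membrane. Complexes I and II take electrons from NADH and succinate, complex III passes them to cytochrome c, and complex IV gives them to oxygen. The proton gradient that results drives the ATP synthase. Subunits from nuclear genes are joined to subunits made from mitochondrial DNA, and several complex IV and ATP synthase subunits exist as paralogs that differ between tissues. Young neurons and their progenitors are known to shift the balance between glycolysis and respiration as they differentiate.

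The promoters of these genes are known for sites of the factors NRF-1, GABP (an ETS protein) and YY1, and were searched for such letters as a feature that the rule did not use. RefSeq promoters (GRCm38.p6, 250 bases before to 50 after the first listed start) were held for 66 of the 81 genes. The NRF-1 palindrome, whose letters stand in capitals in the sequences below and read the same on both strands, stood in 4 of the 66 (6.06%), against 1.58% of 14368 genes of the array with a promoter. With the fifth base left free, on either strand, a form that includes the palindrome, there were 14 (21.2%, against 7.98%). The ETS letters CCGGAAG stood in 16 (24.2%, against 13.8%) and the YY1 letters AAGATGGCG in 5 (7.58%, against 2.35%). The letters TCAAGGTCA of the estrogen-related receptors stood in 2, Sdhd and Atp5g3 (3.03%, against 0.355%), and TATAAA in 8 (12.1%, against 9.86%), all of them on either strand. The 4 promoters with the full NRF-1 palindrome were those of Atp5g2, Atp5k, Cox6a1 and Uqcrc1. Those of the first 3, where the match lay before the start, are shown as examples, with 30 bases on either side of the NRF-1 palindrome.
Atp5g2 (chr15:102671050-102671119, minus strand): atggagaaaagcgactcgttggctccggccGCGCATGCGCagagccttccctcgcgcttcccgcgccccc
Atp5k (chr5:108434410-108434479, minus strand): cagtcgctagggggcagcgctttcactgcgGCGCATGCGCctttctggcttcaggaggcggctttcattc
Cox6a1 (chr5:115349081-115349150, minus strand): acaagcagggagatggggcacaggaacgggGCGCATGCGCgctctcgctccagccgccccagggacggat
The match began 42 bases before the start in Atp5g2, 50 in Atp5k and 162 in Cox6a1. A match of letters is a description of the sequence and not a site shown to be bound.

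The sorted cells of both genotypes gave strong signals for most of these genes. The median level of all probe sets was a log2 intensity of 6.83 (114 intensity units), and 75 of the 81 genes lay at or above it. The 6 below it were the tissue isoforms Cox4i2, Cox7b2, Cox8b and Cox8c and the complex I genes Ndufb1 and Ndufb4. Array medians over all probe sets lay between 118 and 139 intensity units, and the small number of arrays limits the precision. All 7 measured genes of the rhombomere 4 marker list lay at or above the median level, as did 8 of 10 branchiomotor, 12 of 12 neuronal and 9 of 9 progenitor markers, and among markers of other cells 9 of 10 of branchial mesenchyme, 6 of 10 of macrophages, 4 of 9 erythroid, 1 of 9 endothelial and 0 of 8 muscle markers did. The branchiomotor markers below it were the cholinergic genes Chat and Slc18a3. The probe set of Hoxb1 itself gave 12.67, 12.68 and 12.55 in the control arrays and 12.54, 12.06 and 11.78 in the swap arrays, and whether it lies in the replaced part of the gene was not examined, so it does not check the labels. Control array 2 stood apart from the others by its high macrophage markers, whose values are given with the array pattern. In a bulk sample of sorted cells, fewer cells of a type and less RNA per cell cannot be told apart.

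None of the 81 genes passed limma's test between the genotypes, and for nearly all of those with a strong signal the difference was bounded within 2-fold. At an adjusted p under 0.05 limma called 0 of 81, as it called 0 (0%) of all 45037 probe sets. At an unadjusted p under 0.05 there were 0 of 81, against 3.63% of all genes. Among genes at or above the median level the share was smaller, at 141 of 11168, so few were to be found among the 81. Of the 81 differences, swap minus control on the log2 scale, 36 were above 0 and 45 below it. Their median was -0.01, against 0.01 over all genes. With each array centred on its median it was 0.02, against 0.04 over all genes. The median of the 81 was -0.09 without control array 3 and 0.06 without control array 2, where all genes gave 0.002 and 0.009. Among the 75 genes at or above the median level the differences ran from -0.34 to 0.34, and the 95% interval lay within 2-fold for 74 of them, against 68.1% of all 11168 genes at that level. It lay within 1.5-fold for 18 of the 75, against 8.49%. The 6 genes below the median level all had differences below 0, from -1.36 to -0.10, with a median SE of 0.581. A p that misses the threshold does not show that the genotypes are alike. The intervals state how large a difference remains possible, and the median SE of these 75 genes was 0.229, against 0.267 for all genes at that level.

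**Figure D1:**
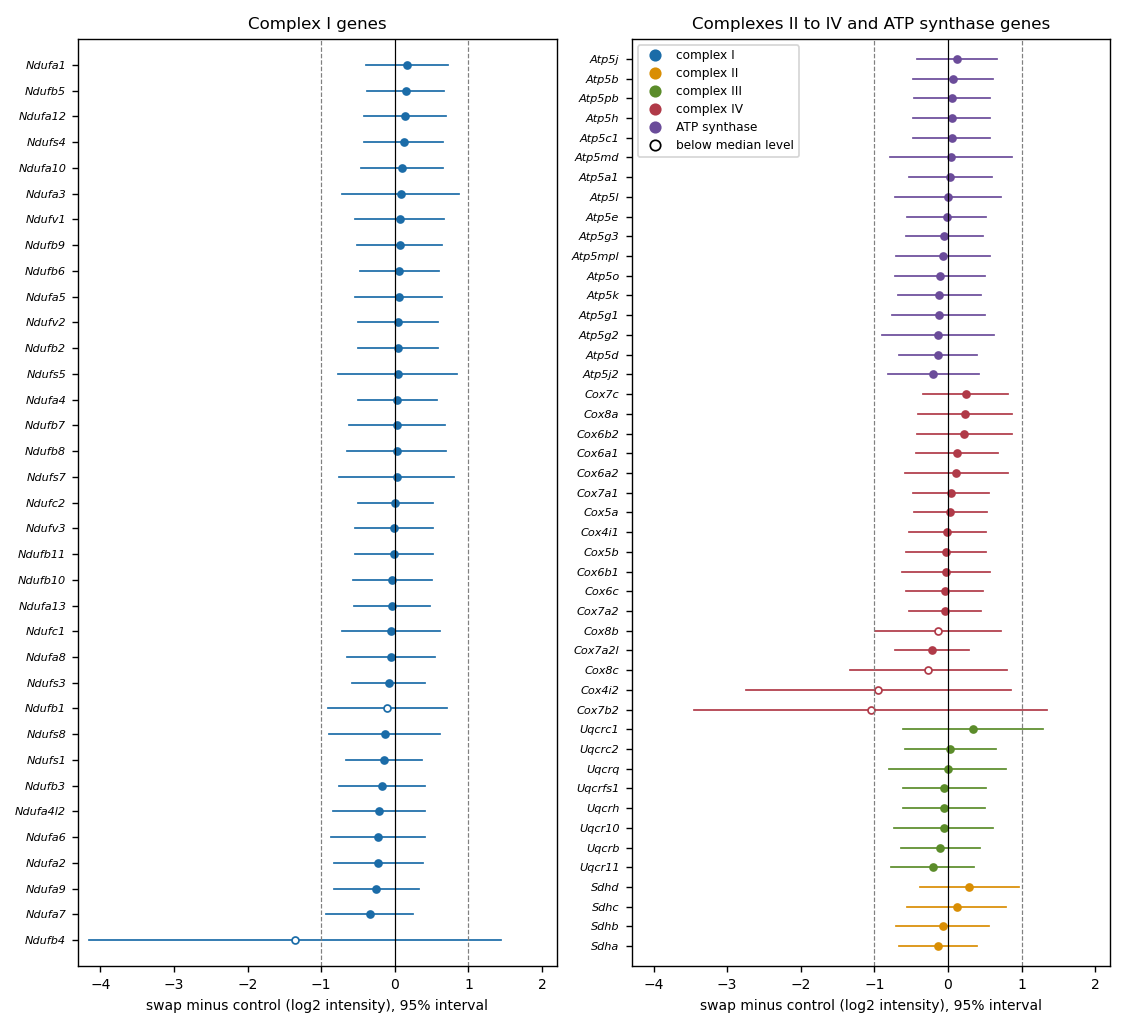
Difference between the genotypes for each of the 81 genes, swap minus control in log2 intensity, as points with 95% intervals from limma (3 arrays per genotype), coloured by complex; open points are genes below the median level of all probe sets and dashed lines mark 2-fold. Every interval crosses 0, and the widest belong to Ndufb4, Cox7b2 and Cox4i2, all below the median level.

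The arrays of the genotypes overlapped for all but 1 gene. All 3 swap arrays lay on one side of all 3 control arrays for 1 of the 81 genes, against 8.85% of all genes and 8.19% of those at or above the median level. That gene was Cox7a2l, which encodes a protein that joins complexes III and IV into supercomplexes. Control arrays 1, 2 and 3 gave a log2 intensity of 12.01, 12.02 and 11.93 for it, and swap arrays 1, 2 and 3 gave 11.74, 11.69 and 11.90. The lowest control array and the highest swap array were thus close together. The swap arrays were lower by this count, as in 4.55% of all genes, and the fitted difference of -0.21 had an SE of 0.20 and a 95% interval from -0.72 to 0.29 (limma's adjusted p = 1.00). The other probe sets of Cox7a2l gave -0.14 and -0.11, and their arrays overlapped. With 1 array left out the count of such genes was 3 to 15 of 81, where all genes gave 16.8% to 20.4%, since fewer arrays overlap less often. It was 15 without control array 2, 10 without control array 3, 8 without control array 1, 6 without swap array 2 or 3 and 3 without swap array 1.

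Complex I begins the chain. Its core subunits, which carry the flavin and the iron-sulfur clusters from NADH inward, had 6 measured genes and a median difference of -0.03, from -0.15 to 0.07. Ndufs3, a core subunit chosen after its values were seen for its narrow spread, read 12.02, 11.99 and 11.96 in the control arrays against 12.02, 11.87 and 11.83 in the swap arrays. The difference was -0.08 (95% interval -0.58 to 0.41), and swap array 1 reached the highest control array. Ndufs8, another core subunit chosen after its values were seen, spread more, at 9.84, 10.70 and 10.12 in the control arrays and 9.82, 10.22 and 10.21 in the swap arrays, with a difference of -0.14. Its high array was control array 2.

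The 27 accessory subunits of complex I, which surround the core and are needed for its assembly and stability, had a median difference of 0.01, and 14 were above 0 and 13 below. Ndufb11, with the highest mean of the complex I genes, had 13.70, 13.48 and 13.35 in the 3 control and 13.52, 13.42 and 13.56 in the 3 swap arrays, a difference of -0.01. The smallest unadjusted p among the complex I genes belonged to Ndufa7, Ndufb4 and Ndufa9. The control arrays gave 10.85, 11.20 and 11.13 for Ndufa7, and the swap arrays 10.48, 10.88 and 10.80. Only swap array 2 overlapped the control range, and a difference of -0.34 was fitted (SE 0.24, 95% interval -0.93 to 0.25, limma's adjusted p = 1.00). The other probe sets of Ndufa7, 4 in number, gave 0.07, 0.05, 0.19 and 0.12, so its direction rested on 1 probe set. Ndufa9, which lies where the membrane arm and the matrix arm meet, gave 11.90, 11.60 and 11.81 in the control and 11.33, 11.75 and 11.47 in the swap arrays, a difference of -0.25 (SE 0.23). Ndufb4 was represented by a dim probe set, with 2.56, 5.79 and 6.39 in the control arrays and 4.51, 2.39 and 3.75 in the swap arrays, all below the median level. Its difference of -1.36 had an SE of 1.13 and moved to -2.53 without control array 1 and to -0.62 without control array 3, so this probe set bounded little. Other probe sets of Ndufb4 carry the symbols of several genes in the platform's table and were not used.

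Ndufa4 was first described as a complex I subunit and is now known to belong to complex IV, and Ndufa4l2 is its hypoxia-induced paralog. Ndufa4 read 10.86, 10.59 and 10.72 in the control arrays against 10.93, 10.65 and 10.69 in the swap arrays, with a difference of 0.04. Ndufa4l2 had 7.67, 8.09 and 8.19 in the 3 control and 7.62, 7.72 and 7.97 in the 3 swap arrays, with a difference of -0.22 (95% interval -0.84 to 0.41). In both genes the ranges of the genotypes overlapped.

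Complex II, succinate dehydrogenase, is also an enzyme of the citric acid cycle and is built from nuclear genes alone. Sdha, its flavoprotein, gave 11.84, 11.99 and 11.73 in the control and 11.75, 11.82 and 11.57 in the swap arrays, a difference of -0.14 (95% interval -0.67 to 0.39). Sdhb, the iron-sulfur subunit, read 10.22, 10.66 and 10.24 in the control arrays against 10.03, 10.48 and 10.41 in the swap arrays, a difference of -0.07 (95% interval -0.71 to 0.56). By these probe sets both subunits of the catalytic head were highest in control array 2, with overlapping genotypes. Another bright probe set of Sdha gave 11.55, 11.11 and 11.15 in the control and 11.48, 11.34 and 11.28 in the swap arrays. Its difference was 0.10 and its lowest array was control array 2, so direction and array order of Sdha depended on the probe set. Dim probe sets of Sdha, below the median level, gave -1.25 and 0.88. The membrane anchor Sdhc had its highest value in swap array 1 (10.82), and the control arrays stood at 10.42, 10.36 and 10.10 and the other swap arrays at 10.16 and 10.26. Its difference of 0.12 became -0.08 without swap array 1. The other anchor, Sdhd, had 11.74, 11.37 and 11.17 in the 3 control and 11.63, 12.02 and 11.50 in the 3 swap arrays, a difference of 0.29 (SE 0.27). A second probe set of Sdhd gave -0.08.

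Complex III had 8 measured genes, 2 above 0 and 6 below, with a median difference of -0.05. Uqcrb, a subunit that binds ubiquinone, had the highest mean of them, at 14.29, 14.29 and 13.95 in the control arrays and 14.09, 14.12 and 14.01 in the swap arrays (difference -0.11). Uqcr11, a small subunit, gave 9.49, 9.84 and 9.61 in the control and 9.30, 9.39 and 9.63 in the swap arrays (difference -0.21, SE 0.23). Uqcrc1, a large core protein on the matrix side, had the widest spread of the 75 genes at or above the median level and was the 1 gene among them whose interval passed beyond 2-fold. The control arrays gave 9.27, 7.95 and 8.50 for it, and the swap arrays 9.11, 8.73 and 8.92. The swap arrays lay inside the control range, and their difference from the control was 0.34 (SE 0.38, 95% interval -0.61 to 1.29), or 0.03 without control array 2 and 0.69 without control array 1. Control array 2, the highest array for 6 of the 8 complex III genes, was the lowest for Uqcrc1.

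Complex IV showed its paralogs at different places against the median level in both genotypes. All 10 genes of the general forms lay above it, with means from 9.53 to 14.36, and of the 7 forms known from muscle, testis or lung 3 lay above it and 4 below, with means from 4.44 to 8.01. Signals of different probe sets do not measure relative amounts of transcript, so each gene is set only against the median level. Cox7a2, the general form of subunit 7a, read 14.42, 14.43 and 14.31 in the control arrays against 14.32, 14.32 and 14.38 in the swap arrays, the narrowest spread among the named genes, with a difference of -0.05 (95% interval -0.54 to 0.44). Its heart and skeletal muscle form Cox7a1 lay just above the median level, with 7.31, 7.12 and 7.06 among the control arrays and 7.29, 7.14 and 7.17 among the swap arrays. Cox4i1 had 12.61, 12.74 and 12.49 in the 3 control and 12.54, 12.51 and 12.74 in the 3 swap arrays (difference -0.01). These genes differed between genotypes by less than the spread between arrays.

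Cox4i2, the form of subunit 4 known from lung and from hypoxia, was low in a single array. The control arrays gave 6.81, 6.15 and 6.35 for it, and swap arrays 1, 2 and 3 gave 3.85, 6.34 and 6.28. Its difference of -0.95 (SE 0.73) became -0.13 without swap array 1. Cox6a1 and Cox6b1, the general forms of subunits 6a and 6b, had differences of 0.12 and -0.03. Cox6a1 gave 12.37, 12.74 and 12.55 in the control and 12.51, 12.69 and 12.82 in the swap arrays, and the genotypes overlapped. Their muscle and testis forms Cox6a2 and Cox6b2 lay above the median level. Cox6a2 had a control mean of 7.86 ± 0.26 and a swap mean of 7.97 ± 0.33, and Cox6b2 had 7.90 ± 0.33 and 8.12 ± 0.16 (SD, n = 3 each). Cox6b2 differed by 0.22 and Cox6a2 by 0.11, each with overlapping arrays. A second probe set of Cox6a2 at a low level, with a mean of 3.48, gave 1.40 (SE 0.58) with arrays that did not overlap, which is a point where the probe sets of a gene disagreed in size. Cox8a, the general form of subunit 8, gave 9.34, 9.74 and 9.18 in the control and 9.47, 9.87 and 9.63 in the swap arrays (difference 0.23). The muscle form Cox8b (difference -0.14), the testis form Cox8c (-0.27) and Cox7b2 (-1.05, SE 0.97) had means below the median level. Their low signals leave wide intervals, up to -3.45 to 1.34 for Cox7b2.

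**Figure D2:**
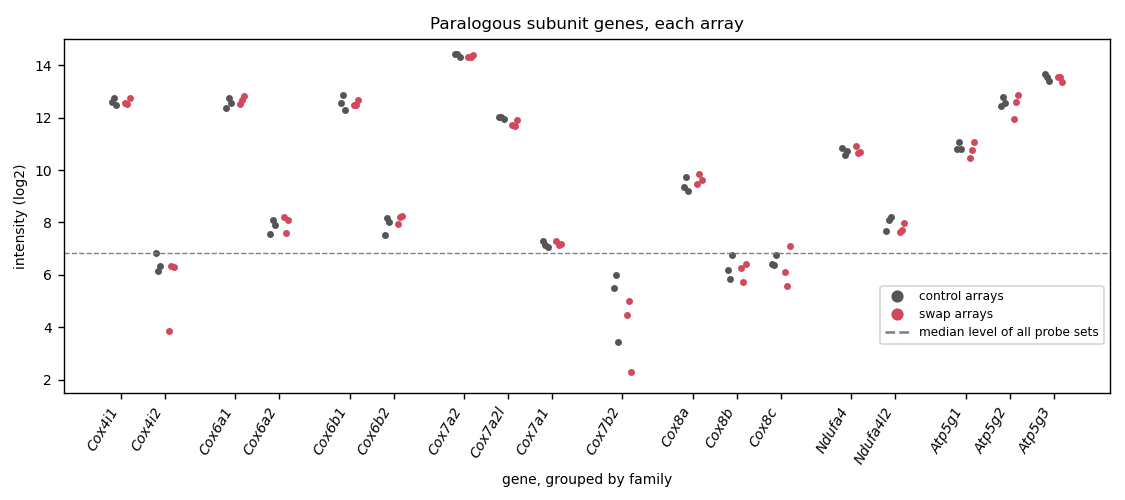
Log2 intensity of paralogous subunit genes in each of the 6 arrays, grouped by family, with control arrays in grey and swap arrays in red; the dashed line is the median level of all probe sets, 6.83. The general complex IV forms lie well above the line in both genotypes, and Cox4i2, Cox8b, Cox8c and Cox7b2 have means below it, with swap array 1 apart for Cox4i2.

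The ATP synthase had all 17 genes above the median level and all 17 intervals within 2-fold. The F1 part, which makes the ATP and is counted here with the central stalk, had 5 genes and a median difference of 0.03. Atp5a1, its alpha subunit, read 13.70, 13.78 and 13.41 in the control arrays against 13.82, 13.61 and 13.56 in the swap arrays (difference 0.03, 95% interval -0.53 to 0.59). Atp5b, the catalytic beta subunit, chosen after its values were seen, had 12.71, 12.45 and 12.37 in the 3 control and 12.70, 12.57 and 12.46 in the 3 swap arrays (difference 0.07). Atp5d, the delta subunit of the central stalk, differed by -0.14 (SE 0.21). Array 1 of each genotype was high for Atp5b.

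The membrane part and the peripheral stalk of the ATP synthase had 12 genes and a median difference of -0.06, with 4 above 0 and 8 below. Atp5g1, Atp5g2 and Atp5g3 encode the same ring-forming c subunit with different import sequences. Atp5g1 gave 10.81, 11.06 and 10.82 in the control and 10.46, 10.76 and 11.09 in the swap arrays (difference -0.13). Atp5g2, whose promoter stretch is printed above, read 12.46, 12.80 and 12.56 in the control arrays against 11.96, 12.60 and 12.86 in the swap arrays (difference -0.13, 95% interval -0.89 to 0.63). Atp5g1 and Atp5g2 were lowest in swap array 1 and highest in swap array 3, and without swap array 1 their differences were 0.03 and 0.13. Atp5g3 did not share that order, at 13.66, 13.56 and 13.38 in the control arrays and 13.54, 13.54 and 13.36 in the swap arrays (difference -0.05). Atp5j2, the f subunit, differed by -0.20 (SE 0.25), Atp5k, the e subunit, by -0.12 (SE 0.23), and Atp5l, the g subunit, by 0.00 (95% interval -0.73 to 0.72). Atp5k had 12.48, 12.69 and 12.25 in the 3 control and 12.45, 12.23 and 12.36 in the 3 swap arrays, and its other probe sets gave -0.07 and -0.26.

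While the genotypes overlapped, the respiratory genes were high or low together in single arrays, a pattern noticed after the values were seen. Each gene's value was set against its own mean over the 6 arrays. In control array 2 the median deviation of the 75 genes at or above the median level was 0.18, and 63 of them (84.0%) lay above their own mean, against 52.3% of all genes at that level. Control array 2 was the highest of the 6 arrays for 41 of the 75 (54.7%), against 17.9% of all genes at that level. It was above both other control arrays for 58 of the 75 (77.3%), against 34.1%. In control array 3 the median deviation was -0.12, 66 of the 75 lay below their own mean, and it was the lowest array for 25, against 16.5% of all genes at that level. The median deviations in the other arrays were -0.02 in control array 1 and -0.06, -0.02 and 0.06 in swap arrays 1, 2 and 3. Over all genes at that level the 6 medians ran from -0.01 to 0.03. The array at the top and the array at the bottom belonged to the same genotype.

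Each complex had a median deviation above 0 in control array 2. It was 0.18 for complex I, 0.11 for complex II, 0.26 for complex III, 0.14 for complex IV and 0.23 for the ATP synthase. Control array 2 was the highest array for 18 of 25 accessory subunits of complex I and 4 of 6 core subunits. Within the ATP synthase it was the highest for 5 of 12 membrane and peripheral stalk genes and 1 of 5 F1 genes. Ndufa3, an accessory subunit chosen after its values were seen, gave 11.11, 12.03 and 11.49 in the control and 11.33, 11.71 and 11.83 in the swap arrays. Uqcrc2, a core protein of complex III also chosen so, read 12.45, 13.02 and 12.63 in the control arrays against 12.57, 12.82 and 12.80 in the swap arrays. Both had control array 1 at the bottom and control array 2 at the top. With quantile normalization, the offset of 64 intensity units or the mean over all probe sets of a gene, the count stayed at 41 of 75, and with median centring it was 37. Under median centring the medians were 0.15 in control array 2 and -0.25 in control array 3.

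**Figure D3:**
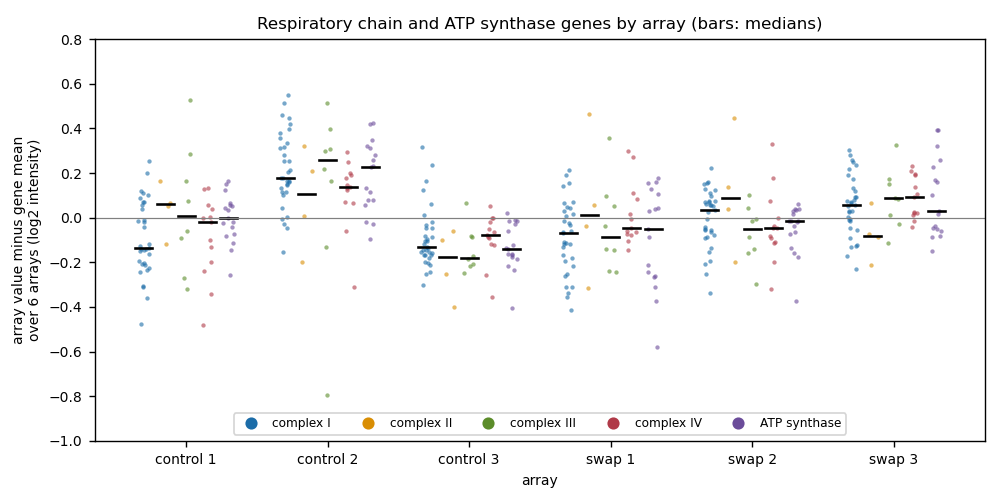
Deviation of each of the 75 genes at or above the median level from its own mean over the 6 arrays, in log2 intensity, by array and complex; points are genes and black bars are medians. The medians of all 5 complexes lie above 0 in control array 2 and below 0 in control array 3.

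Control array 2 also stood apart in markers of some other cells. All 10 macrophage markers were measured, and each was highest in control array 2. Their summed intensity was 601, 18577 and 2199 for control arrays 1, 2 and 3, against 2690, 4987 and 4863 for the swap arrays. By their mean over the arrays 6 of them lay at or above the median level, and Aif1, C1qa, C1qc and Cx3cr1 lay below it. The 10 markers of branchial mesenchyme summed to 5523, 10603 and 7977 in the control arrays and 5300, 8279 and 6073 in the swap arrays, and the 9 measured erythroid markers to 21122, 33975 and 31321 and to 15723, 28288 and 31901. The 12 neuronal markers summed to 58226, 76606 and 71068 and to 75116, 67837 and 77896. Control array 1 had the lowest neuronal and macrophage sums. Mesenchyme and erythroid sums, like macrophage sums, were highest in control array 2, the erythroid sum by a small margin. The 9 endothelial markers, mostly below the median level, summed to 538, 595 and 763 and to 777, 909 and 730. Control array 2 was thus not high for them. The 8 muscle markers, all below that level, summed to 299, 680 and 368 and to 348, 423 and 516. By genotype, 0 erythroid markers were higher in the swap group and 9 lower. For mesenchyme 1 was higher and 9 lower, for macrophages 7 and 3, for neurons 10 and 2 and for endothelium 8 and 1. Of 7 rhombomere 4 markers 3 were higher and 4 lower, and 4 had arrays that did not overlap, against 8.19% of all genes at or above the median level. In each of these lists 0 passed limma's test. As a measure of RNA quality, the 3′ probe set of Actb exceeded its 5′ probe set by 2.67, 2.57 and 2.41 log2 units in the control arrays and 2.92, 2.51 and 2.45 in the swap arrays, and that of Gapdh by 1.35, 1.41 and 1.28 and by 1.93, 1.23 and 1.35. Control array 2 was not extreme in either, and swap array 1 had the highest value in both. The part of RNA quality in the genes whose differences changed without swap array 1 was not tested. The part of these other cells in the level of the respiratory genes was not tested.

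Other genes of energy metabolism did not pass the test either, and the order of their arrays varied from list to list. Of the 50 listed assembly factors, which build the complexes but are not part of them, 46 were measured, 0 passed, 26 were above 0 and 20 below, and the median difference was 0.06. Their smallest unadjusted p belonged to Cox18, an insertion factor of complex IV, with a control mean of 8.06 ± 0.21 and a swap mean of 6.92 ± 1.02, and Sdhaf3, an assembly factor of complex II, with 8.16 ± 0.35 and 8.71 ± 0.18 (SD, n = 3 each). Of 7 listed subunits and relatives that the naming rule missed 6 were measured, 3 above 0 and 3 below, with Dmac2l, known as ATP synthase factor B, at -0.26 (SE 0.33) and AA467197, a relative of Ndufa4 below the median level, at -0.38 (SE 0.60). By array, the 5 of these at or above the median level had median deviations of -0.06, 0.08 and -0.20 in the control arrays. In the swap arrays the values were -0.01, -0.03 and 0.13. As for the 75 respiratory genes, control array 3 was the lowest, and control array 2 and swap array 3 were the high ones. The 13 genes of mitochondrial DNA had 0 probe sets with a single symbol and were not analysed here. All 18 biogenesis regulators were measured, with a median of -0.02. Tfb2m, a mitochondrial transcription factor, had a control mean of 8.61 ± 0.04 and a swap mean of 8.31 ± 0.07 (SD, n = 3 each, difference -0.30, SE 0.20, limma's adjusted p = 1.00), and the coactivator Ppargc1b had a difference of 0.68 (SE 0.49).

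The citric acid cycle list had 16 of 17 genes measured and a median of -0.01, with Sucla2, a subunit of succinyl-CoA synthetase, at 0.31 (SE 0.21) and Idh3a, a subunit of isocitrate dehydrogenase, at 0.21 (SE 0.22). The carriers and porins of the mitochondrial membranes had 10 of 11 measured and a median of 0.02, with the pyruvate carrier Mpc1 at 0.53 (SE 0.36) and the aspartate-glutamate carrier Slc25a12 at -0.24 (SE 0.40). Of 23 listed glycolysis genes 20 were measured, 0 passed and the median was 0.02. Aldoc, an aldolase of the brain, had 7.64, 4.95 and 7.76 in the 3 control and 2.30, 3.68 and 3.80 in the 3 swap arrays. Its mean was below the median level, its arrays did not overlap, and it differed by -3.53 (SE 0.88, limma's adjusted p = 0.847). Eno2, the neuronal enolase, differed by -0.43 (SE 0.29). Of the 14 hypoxia targets 0 passed, with a median of 0.09, Adm at 0.42 (SE 0.29) and Car9 at 0.59 (SE 0.50). Besides Aldoc, the arrays of Cox18 and Tfb2m (swap lower) and of Sdhaf3, Sucla2, Mpc1 and Adm (swap higher) did not overlap. These genes were named for their small p. Over the lists this held for 4 of 46 assembly factors, 0 of 6 subunits outside the rule and 1 gene in each other measured list, against 8.85% of all genes.

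By array, glycolysis genes were high where respiratory genes were not. The 19 glycolysis genes at or above the median level had median deviations of 0.45, -0.02 and -0.30 over control arrays 1 to 3, and of -0.03, 0.29 and -0.20 over swap arrays 1 to 3. Control array 1 and swap array 2 were thus the high ones, and control array 3 was low for glycolysis as for respiration. Ldha, lactate dehydrogenase A, chosen after its values were seen, gave 13.22, 12.25 and 12.11 in the control and 12.69, 13.09 and 12.18 in the swap arrays. The hypoxia targets, which share Slc2a1, Pdk1 and Ldha with the glycolysis list, had 0.09, 0.02 and -0.20 in the control arrays and -0.06, 0.15 and -0.12 in the swap arrays. The assembly factors stayed between -0.07 and 0.09 in all 6 arrays. In the glycolysis, hypoxia and assembly lists no genotype held all the high or all the low arrays. The citric acid cycle genes were highest in swap arrays 1 and 2 (0.08 and 0.12) and lowest in swap array 3 (-0.14). The biogenesis regulators lay below 0 only in swap arrays 2 and 3 (-0.002 and -0.011).

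**Figure D4:**
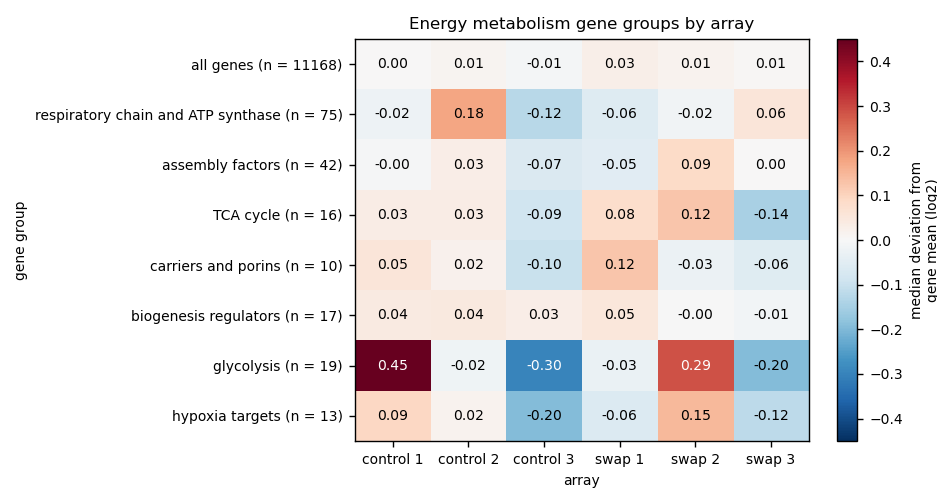
Median deviation from the gene means over the 6 arrays, in log2 intensity, for groups of energy metabolism genes (rows, with the number of genes at or above the median level) in each array (columns). Respiratory chain and ATP synthase genes reach 0.18 in control array 2, and glycolysis genes reach 0.45 in control array 1 and 0.29 in swap array 2.

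The probe sets behind these values limit them in places. The 81 genes had 164 probe sets with a single symbol, 33 genes had 1 and 48 had several. Of the 40 genes with several at or above the median level 15 had differences of a single sign and 25 did not. For 19 of the 40 all of these probe sets had the same highest array, so the array order also depended on the probe set. Over all 138 probe sets of these genes at that level the differences ran from -0.41 to 0.61. Across the 164 probe sets 0 passed limma's test, 3 had an unadjusted p under 0.05 (1.83%, against 4.19% of all 34945 probe sets with a single symbol), and 6 had arrays that did not overlap (3.66%, against 8.78%). Those at or above the median level besides Cox7a2l were a probe set of Ndufs8 (0.23) and one of Sdhc (0.27), both higher in the swap arrays. Of the 81 chosen probe sets 12 carry the suffix s and 11 the suffix x, by which the manufacturer marks probe sets that can match related transcripts, so signal from near-identical genes cannot be kept apart there. The platform's table lists 7 further symbols of the rule only beside other symbols, Ndufs6 and Ndufa11 among them, and these were not analysed here.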

How the data were processed

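The authors deposited a table of linear intensity values, 45101 probe sets by 6 arrays, made with the affy package per the submitters' processing notes. Which background correction and summary were used, and the package version, is not given in the sources used here. After 64 array control probe sets were taken out, log2 was taken and all 45037 probe sets were fitted with limma 3.58.1 in R 4.3.3 (lmFit and eBayes, two-sided, Benjamini-Hochberg adjustment over all probe sets, threshold 0.05, 95% intervals). Genes were named from the platform's probe table, and all 81 matched RefSeq by Entrez identifier with no change of symbol. Genes and lists were chosen with earlier results of these data known. Named genes were, per complex, the 3 with the smallest p and the highest and lowest mean, fixed paralogs, Sdha and Sdhb, genes whose arrays did not overlap, and 2 per pathway list. Others are marked as chosen after their values were seen. The swap protein is not named here. The script was tested on simulated data. Alternatives were the replicate block, a level filter, median centring, quantile normalization, array weights, a trended and robust prior, an offset of 64 intensity units, gene means over probe sets and leaving out arrays. The count of genes highest in control array 2 under 4 of these was added after seeing the data. Same-numbered arrays were not treated as pairs, since their deviations correlated at 0.234, 0.0313 and 0.224.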

Additional observations from a re-analysis of the deposited data

How the results depend on the processing

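limma called 0 of the 81 genes under all 15 alternatives, with 0 to 1 at an unadjusted p under 0.05 and a smallest adjusted p of 0.674 (without both replicate 1 arrays). The median difference ran from -0.09 to 0.06. For scale, the median deviations of the 75 genes at or above the median level had an SD of 0.116 between arrays, pooled within genotypes. That SD comes from the same genes and arrays, so it is not an independent measure of stability. With the replicate number as a block, 0 genes were called and the median stayed at -0.01. The labels do not say whether same-numbered arrays share a batch. Their array medians were 118 and 118, 130.0 and 122, and 139 and 139 intensity units for replicates 1, 2 and 3 (control, then swap). Genes whose arrays did not overlap numbered 2 with gene means (8.91% of all genes), 11 without both replicate 1 arrays (31.1%), and 3 to 15 with 1 array left out (16.8% to 20.4%), where fewer arrays overlap less often by construction. Of 505 values of the 34 named genes 461 kept their direction and 44 turned sign in differences that had not passed. Low signal limits the genes below the median level.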
